A study of Mus musculus with 12 samples.

Results

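The genes described here are the 9 core genes of insulin and insulin-like growth factor (IGF) receptor signalling: the receptors Insr and Igf1r, the adaptors Irs1, Irs2 and Irs4, the phosphoinositide 3-kinase (PI3K) subunit Pik3r1, the kinases Akt1 and Akt2, and the transcription factor Foxo1. They were listed by name and not by a cut on their values, but with earlier results of these data known. Each matched 1 Ensembl ID among the 78334 in the count table. All 9 passed the filter on low counts, which kept 25562 genes. In the GENCODE M21 annotation Insr and Irs2 lie on chromosome 8, Igf1r and Akt2 on chromosome 7, Irs1 on 1, Foxo1 on 3, Akt1 on 12, Pik3r1 on 13 and Irs4 on X.

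Insulin and IGF1 bind related receptor tyrosine kinases, which phosphorylate the insulin receptor substrate (IRS) adaptors. These recruit PI3K, whose lipid product brings Akt to the membrane, and Akt phosphorylates Foxo1 and keeps it out of the nucleus. In the hypothalamus, insulin acting through this pathway is known to restrain feeding and liver glucose output, and most of its steps are controlled by phosphorylation, which RNA sequencing does not measure.

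RNA from the hypothalamus of male C57BL/6 mice was sequenced in 12 libraries. The diabetes model combined streptozotocin, which kills pancreatic beta cells, injected once at 70 mg/kg on postnatal day 2, with a high-fat diet (60% of energy from fat) for 8 weeks from 3 weeks of age. The groups were diabetes with curcumin (50 mg/kg, n = 3), diabetes with aged garlic extract (200 mg/kg, n = 2), diabetes given the vehicle (n = 4), and control mice on a standard diet given the vehicle (n = 3), all gavaged daily for 28 days. Injection and diet cannot be told apart against control, no injection is described for control mice, and the labels do not say whether each library came from 1 animal or from pooled animals. The start of treatment was week 7 of the diet in the protocol and after 11 weeks in the design text.

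Library totals ran from 12950017 to 30271706 counts. In marker genes 3 libraries stood apart. Curcumin replicate 2 was labelled hypothalamus, yet 17 of 18 hypothalamic identity genes were lower there than in every other library, and Hmx2, Hmx3, Fezf1 and Hcrt had 0 counts. Diabetes replicate 4 carried 857 CPM (counts scaled to library size) of pituitary markers in sum, against at most 17.5 CPM in any other library. Control replicate 3 had 1096 CPM of 8 astrocyte markers in sum, against 2683 to 4043 CPM in the other 11. Some changes of Insr, Igf1r, Irs2 and Irs4 that rest on these libraries are also given without them. The genes expected at the lowest depth numbered 20917 to 29126 in curcumin, 33125 to 34719 in garlic, 20133 to 22515 in diabetes and 25766 to 33157 in control libraries.

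All 9 genes were above the counting floor of 3 counts in every library. The lowest count was 47, for Irs4 in curcumin replicate 2. The lowest count of any other member in any library was 154, for Irs1 in diabetes replicate 3. Per kilobase of exon and averaged over the 12 libraries, Akt1 was the most abundant, at 43.4 ± 8.31 CPM per kb (SD, n = 12). Irs4 followed at 15.7 ± 5.79, Irs2 at 12.7 ± 4.95, Pik3r1 at 8.52 ± 2.48 and Akt2 at 6.50 ± 0.86 CPM per kb. The receptors stood lower, with Insr at 3.61 ± 1.26 and Igf1r at 3.21 ± 1.31 CPM per kb, and Foxo1 at 2.69 ± 0.50 and Irs1 at 2.27 ± 0.60 CPM per kb closed the order. Akt1 exceeded Irs4, Irs2 exceeded Pik3r1 and Akt2 exceeded Insr in 12 of 12 libraries. The other neighbours changed places in some libraries: Pik3r1 exceeded Akt2 in 11, Irs4 exceeded Irs2 in 10, and Insr exceeded Igf1r in 9 of 12. Igf1r exceeded Foxo1 in 7 and Foxo1 exceeded Irs1 in 9 of 12 libraries. Neighbours among the lowest 4 levels were thus not separated beyond their spread, while Insr and Igf1r each exceeded Irs1 in 12 of 12 libraries.

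**Figure D1:**
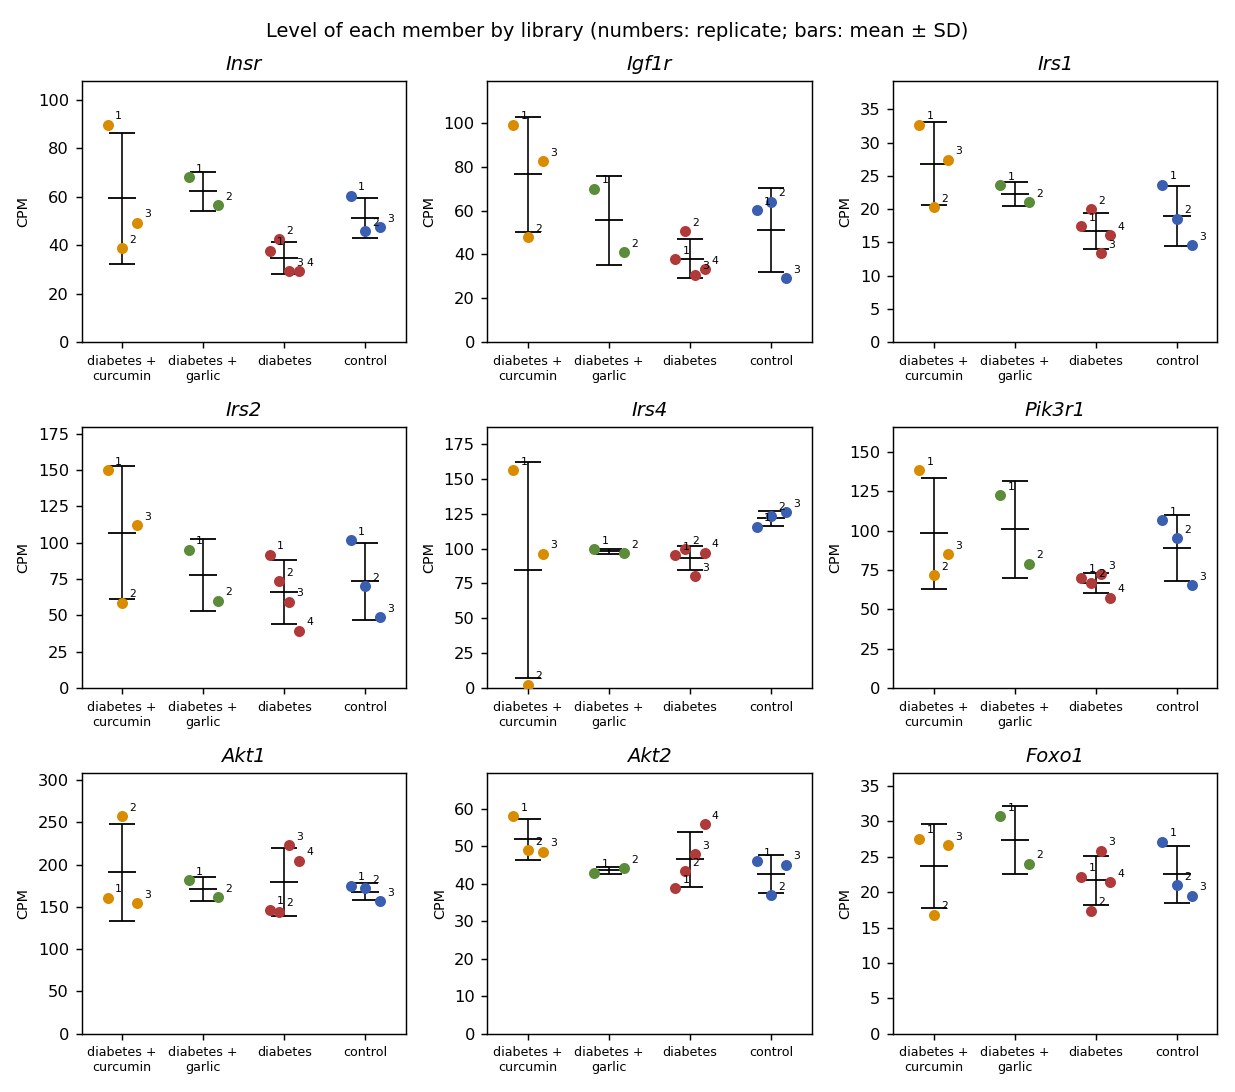
Level of each of the 9 genes in CPM (vertical axis, from 0) in every library, with groups on the horizontal axis; points are libraries marked with their replicate number, and black bars give the mean ± SD. Insr in all 4 diabetes libraries lies below all 3 control libraries, and Irs4 in curcumin replicate 2 lies at 2.33 CPM.

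None of the 9 genes passed an adjusted p of 0.05 in any of the 6 comparisons between groups (edgeR quasi-likelihood test, Benjamini-Hochberg over all genes tested). DESeq2 and limma-voom likewise called 0 of the 9. In the 3 main comparisons 0.0156% of all genes passed for diabetes against control, 0.0900% for curcumin against diabetes and 0% for garlic against diabetes. At an unadjusted p under 0.05, 1 member was lower in diabetes than in control (Insr, against a background of 7.48% of genes) and 0 were higher (4.79% of genes). At the same level 5 were higher in curcumin than in diabetes (Insr, Igf1r, Irs1, Irs2 and Pik3r1, against 10.5%) and 0 lower (6.71%). In garlic 2 were higher than in diabetes (Insr and Pik3r1, against 6.90%) and 0 lower (4.03%). Most members are long genes, for which the background differed from these shares, as given below with gene length. Curcumin and garlic were both compared with the same 4 diabetes libraries, which also entered the comparison with control. A low value in those libraries therefore enters all 3 comparisons.

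The receptors start the pathway. Insr (ENSMUSG00000005534), the insulin receptor, stood at 89.8, 38.8 and 49.3 CPM in curcumin replicates 1 to 3, 68.1 and 56.6 CPM in garlic replicates 1 and 2, 37.8, 42.4, 29.3 and 29.2 CPM in diabetes replicates 1 to 4, and 60.5, 45.7 and 47.6 CPM in control replicates 1 to 3. Every diabetes library lay below every control and every garlic library, while curcumin replicate 2 lay within the diabetes range. The log2 change of Insr was -0.56 ± 0.27 (SE) for diabetes against control (adjusted p = 0.407), 0.77 ± 0.27 for curcumin against diabetes (adjusted p = 0.176) and 0.84 ± 0.30 for garlic against diabetes (adjusted p = 0.361). The interval of 2 SE around the garlic difference ran from 0.25 to 1.44. With 1 library left out at a time, that difference ran from 0.69 to 0.97. The change for diabetes against control was -0.49 without diabetes replicate 4 and -0.61 without control replicate 3. Insr averaged 59.3 ± 26.9 CPM in curcumin, 62.3 ± 8.10 CPM in garlic, 34.7 ± 6.54 CPM in diabetes and 51.3 ± 8.08 CPM in control libraries (SD, n = 3, 2, 4 and 3).

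Igf1r (ENSMUSG00000005533), the receptor for IGF1 and IGF2, stood at 99.3, 48.0 and 82.7 CPM in curcumin replicates 1 to 3, 70.0 and 41.1 CPM in garlic replicates 1 and 2, 37.9, 50.5, 30.8 and 33.3 CPM in diabetes replicates 1 to 4, and 60.2, 64.1 and 29.1 CPM in control replicates 1 to 3. Curcumin replicates 1 and 3 were the highest libraries of all, but the groups overlapped in all 3 comparisons, since curcumin replicate 2 lay below diabetes replicate 2. Its log2 change was -0.42 ± 0.31 for diabetes against control (adjusted p = 0.682), 1.01 ± 0.30 for curcumin against diabetes (adjusted p = 0.135) and 0.54 ± 0.34 for garlic against diabetes (adjusted p = 0.663). Without control replicate 3 the first was -0.70, and the garlic difference was 0.095 without garlic replicate 1 and 0.88 without garlic replicate 2. The curcumin difference of Igf1r was the largest of any member in the 3 main comparisons.

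The outcome for both receptors under curcumin turned on 1 library. Without curcumin replicate 2, the library with low hypothalamic identity genes, edgeR called Igf1r higher (log2 change 1.28, adjusted p = 0.0155) and Insr higher (1.03, adjusted p = 0.0216), in a fit that called 2.97% of all genes higher. With diabetes replicate 4 also left out, a choice made after seeing the data, Igf1r passed (1.19, adjusted p = 0.0484) and Insr did not (0.92, adjusted p = 0.0640), with 1.02% of genes called higher. Without the filter on low counts Igf1r passed too (1.01, adjusted p = 0.0121), with 0.950% of genes called higher. Without curcumin replicate 2 the log2 changes of Irs2, Irs1 and Pik3r1 were 1.02, 0.88 and 0.78, which did not pass (adjusted p = 0.0530, 0.0736 and 0.0650). Without curcumin replicate 1 the log2 changes were 0.78 for Igf1r (adjusted p = 0.415) and 0.34 for Insr (adjusted p = 0.713). Curcumin replicate 1 had the highest level of 7 of the 9 members among all 12 libraries and was among the top 3 for 8.

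Per kilobase, Insr made up 48.1 ± 5.36% of the summed receptor transcripts in curcumin, 58.5 ± 5.95% in garlic, 52.8 ± 1.96% in diabetes and 56.1 ± 10.1% in control libraries (SD). The ratio of Insr to Igf1r in CPM per kb was 0.729 to 1.11 over the curcumin libraries, 1.19 to 1.68 over the garlic libraries, 1.03 to 1.22 over the diabetes libraries and 0.871 to 1.99 over the control libraries. The diabetes ratios lay within the control range.

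The IRS adaptors carry the signal from receptor to PI3K. The promoter windows of these 3 genes are shown because they share letters that the other members' windows lack. RefSeq windows (GRCm38.p6, 250 bases before to 50 after a gene start) were found for 8 of the 9 members, all but Insr, as 13 windows. An E-box, spelled CACGTG on both strands, occurred in the windows of Irs1, Irs2 and Irs4 and of no other member, against 7.15% of all 32851 windows. The insulin response element core, searched as TGTTTTG or its complement CAAAACA, occurred in the same 3 genes, against 6.28% of windows, and 0.408% of windows held both. The stretches below, given 5′ to 3′ on the gene's strand (minus for all 3), hold both motifs in capitals.
Irs1: ggctccgtCACGTGTTTTGctcctctgga
Irs2: cgcagagtCACGTGtTGTTTTGctcttag
Irs4: gcgacggtCACGTGtTGTTTTGcccactg
They lie at chr1:82291534-82291562, chr8:11008953-11008981 and chrX:141725351-141725379, with the E-box starting 115, 44 and 154 bases before the gene start of Irs1, Irs2 and Irs4. In Irs1 the motifs overlap by 2 bases. All 3 share the 10 bases gtcacgtgtt, found in 25 windows (0.0761%), and Irs2 and Irs4 share the 17 bases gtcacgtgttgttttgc, found in 2 of the 32851 windows, their own. The FoxO core GTAAACA or its complement TGTTTAC was in 1 member's window, that of Akt1, against 3.65% of windows. These matches are letters in a window, not sites of binding.

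Irs1 (ENSMUSG00000055980), the adaptor best known from muscle and fat, stood at 32.7, 20.3 and 27.5 CPM in curcumin replicates 1 to 3, 23.6 and 21.1 CPM in garlic replicates 1 and 2, 17.5, 20.0, 13.4 and 16.1 CPM in diabetes replicates 1 to 4, and 23.6, 18.6 and 14.6 CPM in control replicates 1 to 3. Every curcumin library and every garlic library lay above every diabetes library, with curcumin replicate 2 only just above diabetes replicate 2, while diabetes and control overlapped. The log2 change of Irs1 was -0.18 ± 0.28 for diabetes against control (adjusted p = 0.945), 0.68 ± 0.28 for curcumin against diabetes (adjusted p = 0.230) and 0.42 ± 0.31 for garlic against diabetes (adjusted p = 0.783). Irs1 was the sole member whose curcumin libraries all lay above the diabetes libraries, against 5.43% of genes, and no member lay wholly below (4.19%). For garlic over diabetes 3 members did so (Insr, Irs1 and Pik3r1), against 13.2% of genes, and 0 lay below (7.52%). In diabetes 2 members lay wholly below control (Insr and Irs4), against 8.94% of genes, and 0 above (5.78%).

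Irs2 (ENSMUSG00000038894), whose loss in mice causes diabetes and whose loss from the brain raises food intake, stood at 149.9, 58.8 and 112 CPM in curcumin replicates 1 to 3, 95.3 and 60.0 CPM in garlic replicates 1 and 2, 91.7, 73.6, 59.4 and 39.5 CPM in diabetes replicates 1 to 4, and 102, 70.0 and 48.9 CPM in control replicates 1 to 3. The libraries of every group were widely spread and all groups overlapped. Its log2 change was -0.15 ± 0.33 for diabetes against control (adjusted p = 0.970), 0.70 ± 0.33 for curcumin against diabetes (adjusted p = 0.286) and 0.23 ± 0.37 for garlic against diabetes (adjusted p = 1). Without control replicate 3 the first of these was -0.38, and it turned to 0.03 without diabetes replicate 4 and 0.15 without control replicate 1. The ratio of Irs2 to Irs1 in CPM per kb ran from 3.55 in diabetes replicate 4 to 7.60 in diabetes replicate 1, which spans all other libraries.

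Irs4 (ENSMUSG00000054667), an adaptor of restricted tissue expression that is known to be abundant in the hypothalamus, stood at 156, 2.33 and 96.3 CPM in curcumin replicates 1 to 3, 99.5 and 96.7 CPM in garlic replicates 1 and 2, 95.3, 99.7, 80.2 and 96.9 CPM in diabetes replicates 1 to 4, and 116, 124 and 126 CPM in control replicates 1 to 3. The diabetes and garlic libraries all lay below every control library, and curcumin held both the highest and the lowest library. Its log2 change for diabetes against control was -0.39 ± 0.62 (adjusted p = 0.947), with the spread estimated over all 4 groups. Fitted on diabetes and control alone the change was -0.43 ± 0.16 (unadjusted p = 0.0227, adjusted p = 0.213). Without curcumin replicate 2 and diabetes replicate 4 it was -0.42 (adjusted p = 0.394). The curcumin difference of Irs4 against diabetes was -0.13 ± 0.63 (adjusted p = 0.957) with all libraries and 0.47 without curcumin replicate 2 (adjusted p = 0.172). The garlic difference was 0.08 ± 0.71 (adjusted p = 1). With the number of detected genes as a covariate, the Irs4 changes were -3.00 ± 1.11 for diabetes against control (adjusted p = 0.287) and 3.85 ± 1.52 for garlic against diabetes (adjusted p = 0.467). That number was 20133 to 22515 in diabetes, 25766 to 33157 in control and 33125 to 34719 in garlic libraries. Diabetes overlapped neither, so covariate and group cannot be told apart there. These 2 changes extrapolate beyond the levels listed above, where the diabetes and garlic libraries overlapped.

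The low value of Irs4 rested on 47 counts in curcumin replicate 2, or 2.33 CPM with a 95% exact Poisson interval of 1.71 to 3.10 for counting error only. The other 11 libraries ran from 80.2 to 156 CPM with a median of 99.5, which was 42.6-fold higher. In the same library the 18 hypothalamic identity genes had a median of 0.223 CPM and a sum of 258 CPM, against sums of 714 to 4832 CPM elsewhere. Nkx2-1, a transcription factor of the ventral forebrain, had 1 count, Otp, which specifies peptide neurons, had 4 and the neuropeptide gene Pmch had 9. Sst, a peptide gene that is also widely used outside the hypothalamus, stood at 249 CPM, against a median of 248 elsewhere. Oligodendrocyte markers summed to 11756 CPM there, against 4262 to 7537 CPM elsewhere. The part of these cells in the Irs4 result was not tested. In bulk tissue, fewer cells of a type and less RNA per cell cannot be told apart.

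**Figure D2:**
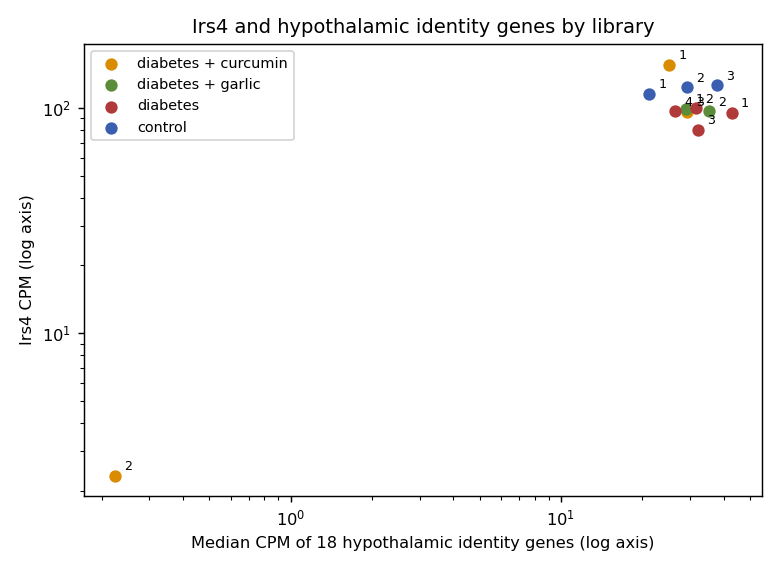
Irs4 in CPM (vertical log axis) against the median CPM of 18 hypothalamic identity genes (horizontal log axis) in each of the 12 libraries, coloured by group and marked with the replicate number. Curcumin replicate 2, at 2.33 CPM of Irs4 and a median of 0.223 CPM, lies apart from the other 11 libraries.

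Compared per kilobase, Irs4 made up 49.7 ± 16.6% of the summed IRS transcripts over the 12 libraries, Irs2 42.3 ± 13.5% and Irs1 7.98 ± 3.48% (SD, n = 12). The share of Irs4 averaged 51.9 ± 6.60% in garlic, 55.3 ± 7.50% in diabetes and 59.3 ± 9.31% in control libraries, differences within the SD. In curcumin replicate 2 the shares were 3.12% for Irs4, 78.3% for Irs2 and 18.6% for Irs1. With that library the curcumin mean for Irs4 was 31.1 ± 24.3%, while curcumin replicates 1 and 3 stood at 47.6% and 42.5%, against a lowest share of 47.2% in any garlic, diabetes or control library.

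**Figure D3:**
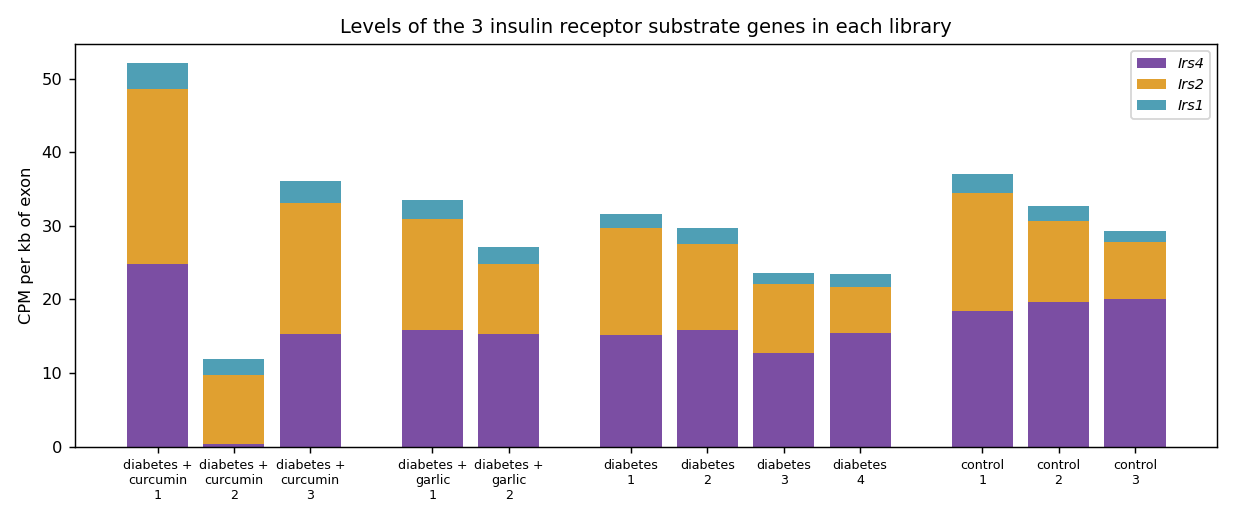
Levels of Irs4, Irs2 and Irs1 in CPM per kb of exon, stacked for each library (vertical axis from 0), with libraries grouped along the horizontal axis. Irs4 is nearly absent from the bar of curcumin replicate 2 and Irs1 is the smallest segment in every library but that one.

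Pik3r1 (ENSMUSG00000041417) encodes the main regulatory subunits of class I PI3K. It stood at 138, 71.7 and 85.0 CPM in curcumin replicates 1 to 3, 123 and 79.0 CPM in garlic replicates 1 and 2, 70.2, 67.0, 72.4 and 57.4 CPM in diabetes replicates 1 to 4, and 107, 95.2 and 65.4 CPM in control replicates 1 to 3. Both garlic libraries lay above the diabetes libraries, and 1 library each of curcumin and control fell within the diabetes range. The log2 change of Pik3r1 was -0.42 ± 0.25 for diabetes against control (adjusted p = 0.562), 0.56 ± 0.25 for curcumin against diabetes (adjusted p = 0.269) and 0.59 ± 0.28 for garlic against diabetes (adjusted p = 0.456).

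Akt1 (ENSMUSG00000001729), a broadly expressed isoform, stood at 161, 257 and 154 CPM in curcumin replicates 1 to 3, 181 and 161 CPM in garlic replicates 1 and 2, 146, 144, 223 and 204 CPM in diabetes replicates 1 to 4, and 175, 172 and 156 CPM in control replicates 1 to 3. All groups overlapped, and the highest level was in curcumin replicate 2, which also had the lowest Irs4 and the lowest Foxo1 of all libraries. The log2 change of Akt1 was 0.10 ± 0.23 for diabetes against control, 0.09 ± 0.23 for curcumin against diabetes and -0.07 ± 0.26 for garlic against diabetes (adjusted p = 0.976, 0.910 and 1).

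Akt2 (ENSMUSG00000004056), the isoform best known for insulin-stimulated glucose uptake, stood at 58.0, 48.9 and 48.5 CPM in curcumin replicates 1 to 3, 42.9 and 44.2 CPM in garlic replicates 1 and 2, 38.8, 43.3, 47.8 and 55.9 CPM in diabetes replicates 1 to 4, and 46.0, 36.9 and 45.1 CPM in control replicates 1 to 3. It was the steadiest member per kilobase, with a highest level 1.57-fold the lowest. Its log2 change was 0.12 ± 0.21 for diabetes against control, 0.16 ± 0.21 for curcumin against diabetes and -0.09 ± 0.24 for garlic against diabetes (adjusted p = 0.957, 0.792 and 1).

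Foxo1 (ENSMUSG00000044167), the transcription factor that Akt holds in the cytoplasm, stood at 27.5, 16.8 and 26.6 CPM in curcumin replicates 1 to 3, 30.7 and 24.0 CPM in garlic replicates 1 and 2, 22.2, 17.4, 25.8 and 21.5 CPM in diabetes replicates 1 to 4, and 27.1, 20.9 and 19.5 CPM in control replicates 1 to 3. The 4 groups overlapped. Its log2 change was -0.05 ± 0.27 for diabetes against control, 0.12 ± 0.27 for curcumin against diabetes and 0.33 ± 0.30 for garlic against diabetes (adjusted p = 0.993, 0.886 and 0.878).

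Over the 9 members, the median log2 change was -0.18 for diabetes against control, beside -0.07 for all genes tested, with 7 members lower and 2 higher. It was 0.56 for curcumin against diabetes, beside 0.07 for all genes, with 8 higher and 1 lower. It was 0.33 for garlic against diabetes, beside 0.07 for all genes, with 7 higher and 2 lower. The change of a gene went with its length in these libraries, and the members are long: 8 of 9 belong to the longest of 4 equal classes of genes, with exons of at least 5709 bases, and Akt1 has 4098. The median log2 change of all genes in that class was -0.30 for diabetes against control, 0.34 for curcumin against diabetes and 0.32 for garlic against diabetes. In the class with exons of at most 1732 bases it was 0.25, -0.43 and -0.27. Of the 5472 genes in the longest class, 749 were lower and 41 higher in diabetes than in control at an unadjusted p under 0.05 (edgeR). For curcumin against diabetes 1234 of them were higher and 65 lower. For garlic against diabetes 706 were higher and 36 lower.

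**Figure D4:**
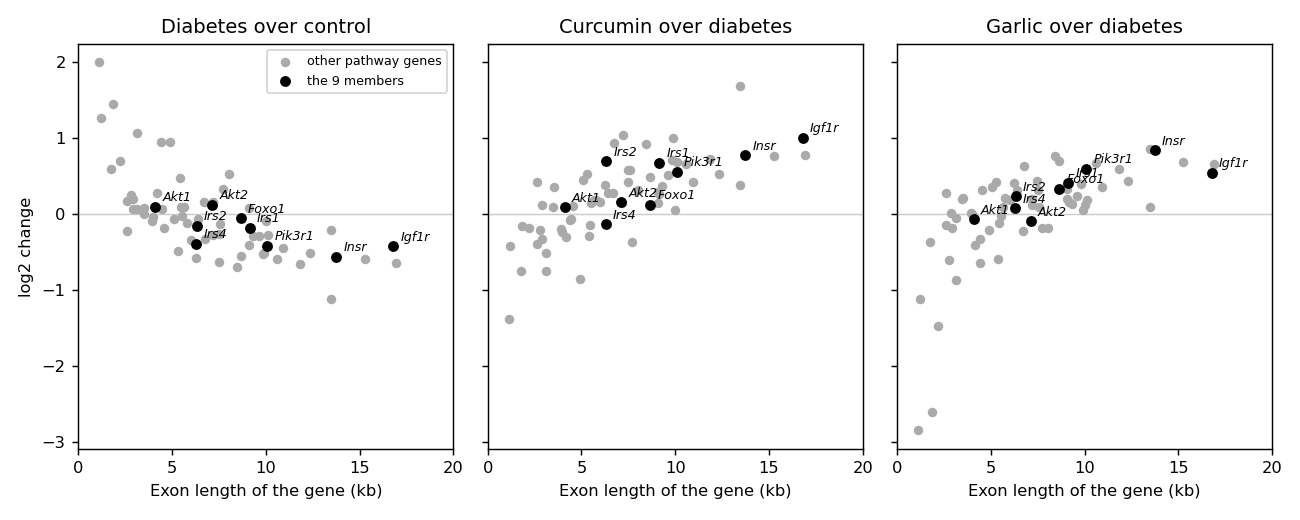
Log2 change (vertical axis) against exon length in kb (horizontal axis) for the 9 members (black) and the other pathway genes (grey), 68 genes with at least 1 CPM on average, in the 3 main comparisons. Igf1r and Insr, the longest members at 16791 and 13746 bases, have the most positive changes of the members for curcumin against diabetes.

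With this trend removed from each library, the members' median log2 change was 0.09 for diabetes against control, 0.13 for curcumin against diabetes and -0.03 for garlic against diabetes. The median over all genes was then 0.11, -0.006 and -0.12 in the same order. Insr then stood at -0.13 ± 0.20, 0.24 ± 0.20 and 0.40 ± 0.22 in the same order of comparisons. Igf1r stood at 0.06 ± 0.23, 0.44 ± 0.23 and 0.01 ± 0.26. The direction of Igf1r, Irs1, Irs2 and Foxo1 for diabetes against control thus turned, and no member passed. Of these, Igf1r at 0.06 and Irs2 at 0.09 stayed below the median of all genes.

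**Figure D5:**
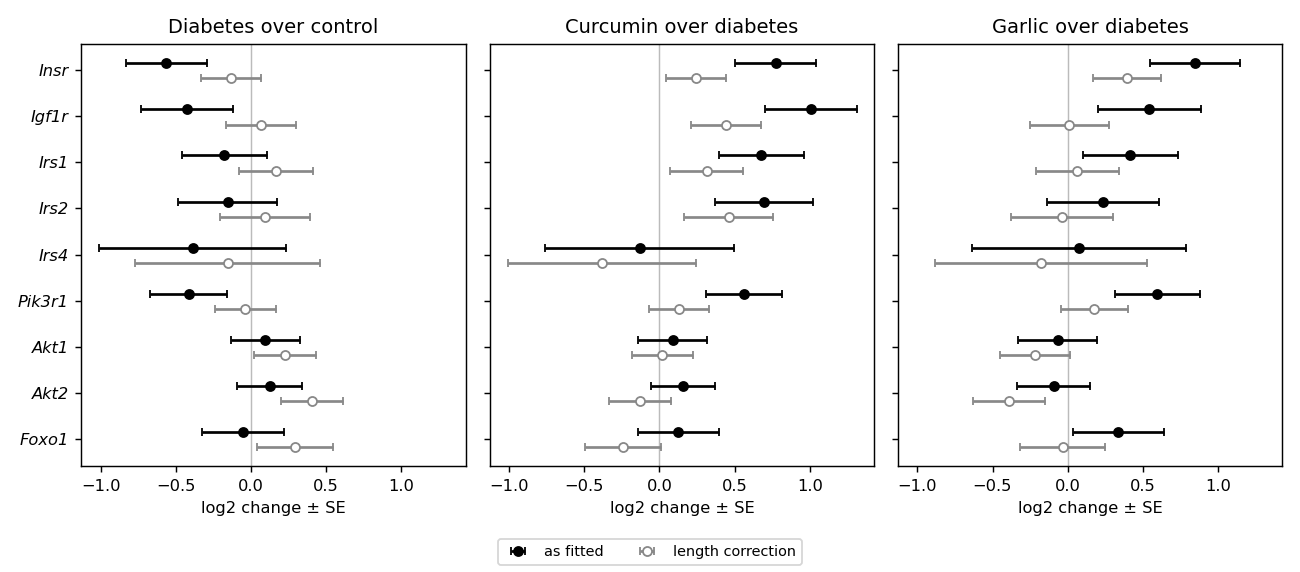
Log2 change ± SE (horizontal axis) of the 9 members (vertical axis) in the 3 main comparisons, as fitted (filled) and after removing the length trend (open). For Insr, the change for diabetes against control is -0.56 as fitted and -0.13 after the correction.

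Other cell markers moved with these comparisons. Of the 6 blood genes, 5 were tested. All 5 were higher in diabetes than in control at an unadjusted p under 0.05, against 4.79% of all genes. Blood sums were 264 to 1755 CPM in diabetes and 87.5 to 196 CPM in control libraries. Slc4a1, a defining red cell gene, had 0 counts in every diabetes library. Among the 6, 1 gene was also at 0 in control replicates 1 and 2, every curcumin library and garlic replicate 1. The 5 tested blood genes were lower in curcumin and in garlic than in diabetes, 4 of them at an unadjusted p under 0.05 in each. Over all genes 6.71% and 4.03% were lower at that level. Blood sums were 122 to 504 CPM in curcumin, the highest in replicate 2, and 115 to 154 CPM in garlic libraries. Of 9 thalamus and habenula markers, 7 were lower in diabetes than in control. Of these, 5 had an unadjusted p under 0.05, against 7.48% of all genes (smallest adjusted p = 0.0927). The sums overlapped, at 469.9 to 735 CPM in diabetes and 514 to 749 CPM in control libraries. Pou4f1, a habenula factor, had 0 counts in every diabetes library. Among the 9, 1 gene was also at 0 in control replicate 2 and curcumin replicates 1 and 3. In curcumin and in garlic 7 of the 9 were higher than in diabetes, 3 and 0 of them at an unadjusted p under 0.05. Over all genes 10.5% and 6.90% were higher at that level. The sums were 335 to 688 CPM in curcumin and 379 to 492 CPM in garlic libraries. Neuron markers summed to 3640 to 4261 CPM in diabetes and 4301 to 4747 CPM in control libraries, with 7 of 8 lower. Endothelial and mural markers were higher in curcumin than in diabetes for 8 of 8 genes, 5 of them at an unadjusted p under 0.05, against 10.5% of all genes. Their sums were 146 to 454 CPM in curcumin, the highest in replicate 2, and 69.1 to 199 CPM in diabetes libraries. In garlic against diabetes 7 of these 8 were higher, with sums of 185 to 291 CPM in garlic libraries, and Kdr was at 0 in 1 diabetes library. Hypothalamic identity genes were lower in curcumin than in diabetes for 18 of 18, 5 of them at an unadjusted p under 0.05, against 6.71% of all genes. Curcumin replicate 2, with a sum of 258 and a median of 0.223 CPM, enters this result. Curcumin replicates 1 and 3 had sums of 714 and 1677 CPM and medians of 25.2 and 29.3 CPM. The diabetes libraries had sums of 2421 to 4832 CPM and medians of 26.4 to 42.8 CPM. The part of these cells in the members' differences was not tested.

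In the remaining comparisons the members' median log2 change was 0.21 for curcumin against control, 0.12 for garlic against control and 0.15 for curcumin against garlic, with an adjusted p of 1 for each member in each. No member had an unadjusted p under 0.05 in any of these 3, where 1.06% and 1.28% of genes were higher and lower for curcumin against control, 0.0782% and 0.0313% for garlic against control, and 0.462% and 1.13% for curcumin against garlic. The curcumin libraries of Akt2 all lay above control, against 2.82% of genes, and above garlic, against 4.21%; no member lay wholly below control (5.84%) or garlic (9.91%). Both garlic libraries of Irs4 lay below control, against 6.11% of genes, and 0 members lay wholly above (6.65%). The largest difference between curcumin and garlic was that of Igf1r, at 0.46 with an interval of 2 SE from -0.28 to 1.21, so a difference of more than 2-fold between the treatments is within its interval.

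Among the ligands, Igf1, made in the brain by neurons and other cells, was low, at 6.48, 10.6 and 5.30 CPM in curcumin replicates 1 to 3, 3.50 and 4.26 CPM in garlic replicates 1 and 2, 0, 2.82, 0.957 and 11.2 CPM in diabetes replicates 1 to 4, and 7.30, 3.15 and 5.58 CPM in control replicates 1 to 3. The diabetes libraries held both the highest level and a count of 0, and the log2 change of Igf1 against control was -0.51 ± 0.99 (adjusted p = 0.964). Without diabetes replicate 4, which held the highest level, it was -2.09 (adjusted p = 0.487). Igf2, a ligand expressed in meninges and choroid plexus, had 0, 2 and 0 counts in curcumin replicates 1 to 3, 13 and 10 counts in garlic replicates 1 and 2, 0 counts in all 4 diabetes libraries, and 32, 19 and 0 counts in control replicates 1 to 3. No diabetes library held a count, so Igf2 passed the filter through the other groups. With the diabetes group set to a floor of 3 counts, the control mean was 20.5-fold that floor (adjusted p = 0.323 for diabetes against control). The garlic mean was 14.1-fold the floor (adjusted p = 0.400 for garlic against diabetes). The control value was 13.5-fold without control replicate 1 and 30.8-fold without control replicate 3. Control replicate 3 also had 0 counts, so these folds are not lower bounds. The insulin genes had 0 counts (Ins1) and 3 counts in 1 library (Ins2), and they, Igfals and G6pc were not tested.

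The wider pathway was read from 4 lists, and 0 of their genes passed in any comparison. Of 9 tested genes among ligands and binding proteins, 1 was higher and 1 lower in diabetes than in control at an unadjusted p under 0.05, with a median log2 change of 0.06, where 4.79% of all genes were higher and 7.48% lower. The lower gene was Igf2, which had 0 counts in every diabetes library and passed the filter through the other groups. Of 17 adaptors and phosphatases (Grb2, Shc1, Ptpn1 and others), 3 were lower and 0 higher, with a median of -0.19. Of 18 further genes of PI3K, Akt and mTOR signalling, 4 were lower and 0 higher, with a median of -0.27. Of 18 tested relatives and reported targets of Foxo1 (Sgk1, Pdk4, Txnip and others), 1 was higher and 1 lower, with a median of 0.04.

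For curcumin against diabetes the PI3K, Akt and mTOR genes numbered 7 higher and 0 lower at an unadjusted p under 0.05, with a median log2 change of 0.41, where 10.5% of all genes were higher and 6.71% lower. The adaptors and phosphatases numbered 5 higher and 0 lower, with a median of 0.28, the Foxo1 relatives and targets 3 higher and 0 lower, with a median of 0.07, and the ligands and binding proteins 0 in either direction, with a median of -0.08. For garlic against diabetes the 4 medians were 0.21, 0.32, 0.05 and -0.05 in the same order of lists, with 2, 3, 1 and 1 genes higher and 0, 0, 0 and 2 lower, where 6.90% of all genes were higher and 4.03% lower. The ligand gene counted as higher was Igf2, with 0 counts in every diabetes library.

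The genes whose log2 CPM went most closely with a member over the 12 libraries were searched among 13801 genes. For Insr they were Wnk1 (Pearson r = 0.96), a kinase of ion transport, Med1 (0.96), a subunit of the Mediator complex, and Appbp2 (0.96). For Igf1r they were Nwd1, Ifnar1, a chain of the type I interferon receptor, and Ecpas (each 0.95). For Irs2 they were Stk35 (0.97), Fstl4 (0.95) and Ash1l (0.95), a histone methyltransferase. All 6 companions of the receptors had exons of at least 5709 bases, as did Stk35 and Ash1l, while Fstl4 had 4380. The share of such lengths among the genes searched is not given here. The points share library depth and composition. For Irs4 the closest genes were Nkx2-1 (0.99), Arhgap36 (0.99) and Sytl4 (0.98), with exons of 2842, 3421 and 5125 bases. Without curcumin replicate 2 these correlations were 0.30, 0.66 and 0.22 over 11 libraries.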

How the data were processed

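Hypothalamic RNA was extracted with Trizol, made into stranded poly-A libraries and sequenced as paired reads of 150 bases, per the labels. The values are raw counts per gene in 1 table deposited by the authors. Per the submitters' processing notes, featureCounts and FastQC were used with GRCm39; not given in the sources used here are the aligner, how strand and multi-mapping reads were handled, and the annotation release, so reads shared with antisense or overlapping genes cannot be told apart. GENCODE M21 and RefSeq tables on GRCm38.p6 supplied symbols (51486 IDs, carrying 97.8% of counts), exon lengths and promoter sequences, and no coordinate was converted.

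Columns were matched to samples by the library name in the labels. Every pair of libraries differed beyond sampling noise (chi-square per degree of freedom at least 20.0). All 12 libraries were fitted together with edgeR 4.0.16 (R 4.3.3, filterByExpr, TMM scaling, glmQLFTest, two-sided, Benjamini-Hochberg over 25562 genes, threshold 0.05). The biological coefficient of variation was 0.808. The fit was checked on simulated counts for the estimated size of planted changes. Those counts held no length trend and no library unlike the others. CPM are counts over TMM-scaled library size; SE is that of the log2 change. The labels do not say that libraries are separate animals, so p-values measure the spread between libraries, which may be partly technical. Levels per kilobase use the union of exons. The length trend was fitted per library by lowess (span 0.3) on log2 exon length. Genes most like a member averaged at least 1 CPM. Alternatives used DESeq2 1.42.0, limma 3.58.1 (voom with library weights), other scaling and filters, covariates, fewer groups and left-out libraries.

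The members and the gene lists were chosen with earlier results of these data known. All 9 members, Igf1 and Igf2 were named by rule, and any other listed gene only if it passed; some listed genes are not reported here.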

Additional observations from a re-analysis of the deposited data

How the results depend on the processing

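No member passed for diabetes against control or garlic against diabetes under any of the alternatives run. For curcumin against diabetes 1 member, Igf1r, passed without the filter on low counts and with both doubted libraries left out (curcumin replicate 2 and diabetes replicate 4, a choice made after seeing the data), and 0 to 2 passed with 1 library left out, 2 of them without curcumin replicate 2. Over the 9 members and the 3 main comparisons, 38 values under an alternative turned the direction, none of a change that had passed.

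The members' median log2 change for diabetes against control was -0.52 with detected genes as covariate and 0.094 with the length correction (-0.36 without control replicate 3 to 0.013 without control replicate 1). Detected genes in diabetes libraries overlapped neither control nor garlic libraries, so that covariate and group cannot be told apart in those comparisons. For curcumin against diabetes it was 0.45 with limma-voom, 0.67 with the covariate, 0.13 with the length correction, 0.43 with the replicate block and 0.68 without both doubted libraries (0.23 without curcumin replicate 1 to 0.78 without curcumin replicate 2). For garlic against diabetes it was 0.81 with the covariate and -0.035 with the length correction (0.095 without garlic replicate 1 to 0.50 without garlic replicate 2), and for garlic against control it was -0.067 to 0.38 with 1 library left out.

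The length correction turned, for diabetes against control, Igf1r to 0.063, Irs1 to 0.16, Irs2 to 0.094 and Foxo1 to 0.29. It turned, for curcumin against diabetes, Akt2 to -0.13 and Foxo1 to -0.24, and for garlic against diabetes Irs2 to -0.038, Irs4 to -0.18, Foxo1 to -0.035 and Igf1 to -0.34. With that correction the median over all genes was 0.11 for diabetes against control, -0.006 for curcumin against diabetes and -0.12 for garlic against diabetes. Igf1 for diabetes against control was -2.63 with limma-voom, -2.55 with the replicate block and -2.11 without both doubted libraries. The covariate turned Igf1 to 0.57 for diabetes against control and -1.57 for garlic against diabetes, and for curcumin against diabetes Irs4 to 0.051 and Akt1 to -0.077. RLE scaling turned Foxo1 to 0.0015 for diabetes against control and Igf1 to -0.0011 for garlic against diabetes, DESeq2 turned Foxo1 to 0.00097 for diabetes against control, and limma-voom turned Akt1 to -0.059 for curcumin against diabetes. Fitting only the 2 groups turned Akt1 to 0.0039 for garlic against diabetes. The replicate block turned Irs2 to 0.061 for diabetes against control, and for garlic against diabetes Irs2 to -0.083, Akt1 to 0.020 and Akt2 to 0.033; it changed no call of a member, left 1, 47 and 1 genes called in the 3 main comparisons, and gave diabetes replicate 4 no partner. Correlations between the deviations of same-numbered libraries ran from -0.18 to 0.25 over 15 pairs. Their median was 0.018, against 0.0018 over 38 other pairs. All pairs of replicates 1 were positive, from 0.014 (control and diabetes) to 0.25 (control and garlic). The 2 garlic libraries deviate as mirror images, so their pairs are not independent. Not every library went best with its own number, so the numbers were not taken to pair them. Leaving out both doubted libraries turned Irs2 to 0.020 for diabetes against control, Irs4 to 0.46 and Akt1 to -0.11 for curcumin against diabetes, and Akt1 to 0.032 and Akt2 to 0.039 for garlic against diabetes.

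With 1 library left out at a time, the log2 changes that turned had these ranges; leaving out a garlic library leaves 1, assumed to vary like the other groups. For diabetes against control Irs1 ran from -0.33 to 0.013, Irs2 ran from -0.38 to 0.15, Akt1 ran from -0.024 to 0.18 and Foxo1 ran from -0.15 to 0.10. For curcumin against diabetes Irs4 ran from -0.92 to 0.47 and Akt1 ran from -0.15 to 0.22. For garlic against diabetes Irs2 ran from -0.15 to 0.53, Akt1 ran from -0.17 to 0.053, Akt2 ran from -0.17 to 0.0071 and Igf1 ran from -0.37 to 1.63. Others kept their direction but moved by over 1.5 times. For diabetes against control Igf1r ran from -0.70 to -0.23, Pik3r1 from -0.60 to -0.27, Akt2 from 0.020 to 0.20 and Igf1 from -2.09 to -0.095. For curcumin against diabetes Insr ran from 0.34 to 1.03, Irs2 from 0.37 to 1.02, Pik3r1 from 0.23 to 0.78, Akt2 from 0.067 to 0.26, Foxo1 from 0.00072 to 0.36 and Igf1 from 0.58 to 2.58. For garlic against diabetes Igf1r ran from 0.095 to 0.88, Pik3r1 from 0.23 to 0.88, Irs4 from 0.0096 to 0.11 and Foxo1 from 0.13 to 0.50.

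Over all genes, edgeR called 4 for diabetes against control (0 to 1177 over the alternatives, the highest by limma-voom), 23 for curcumin against diabetes (0 to 1975, the highest without curcumin replicate 2) and 0 for garlic against diabetes (0 to 432, the highest by DESeq2). The cause of these shifts was not tested. Groups of 2 to 4 libraries leave SEs of 0.21 to 0.71 on the members' log2 changes, so a change within 2 SE of 0 could not be told from none.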
